A study of Mus musculus with 50 samples.

Results

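The wound bed of amputated mouse digits labelled non-regenerative was compared between 7 days and 0 hours after surgery, using 5 digits at 7 days and 3 digits at 0 hours. These 8 samples were chosen by the group and time in their labels, out of 50 in the series and 29 labelled non-regenerative. The terminal phalanx (P3) of hindlimb digits of young adult male C57Bl/6 mice was cut, the tissue around the wound was taken as a mixture of cell types, and poly(A)+ RNA was sequenced. The 0-hour digits were collected at the time of amputation and serve as the reference, so they were cut as well. No transgene, mutation or drug distinguishes the groups, and the labelled amputation levels were 62%, 62% and 75% at 0 hours and 63%, 65%, 72%, 73% and 75% at 7 days. A cut above 67% is the level usually taken as non-regenerative, so 4 of the 8 digits, 2 at each time, lie in the range between the regenerative and non-regenerative levels despite their label. The question asked of these samples was which transcripts had moved away from the level of freshly cut tissue by the end of the first week, in digits labelled as not regrowing.

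A mouse digit cut through the distal part of P3 can rebuild bone, nail and skin, whereas a cut nearer the joint closes with a scar. In both cases clotted blood and inflammatory cells come first, osteoclasts erode the bone stump, and keratinocytes migrate beneath the clot to close the epidermis. Fibroblasts then fill the wound with a provisional matrix of fibronectin, tenascins and thrombospondins, which is followed by fibrillar collagen that lysyl oxidases cross-link.

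The digit libraries held between 3206590 and 10608244 expected counts each over 21954 genes. One day-7 library, replicate 2 (amputated at 65%), stood apart from the others. Among the 5000 genes most abundant at 0 hours, 84 had no count in replicate 2, against at most 5 in any of the other 7 digits. Its Spearman correlation with the other day-7 digits over those genes was 0.529 to 0.742, and its mitochondrial share of 0.226% lay below the 0.858% to 2.28% of the others. Results are therefore given with it (8 digits) and without it (7 digits). The label dates also divided the digits: July for replicates 1 and 4 at 7 days and replicate 1 at 0 hours, November for the remainder. Without replicate 2, day-7 digits of the same date correlated at 0.900 and 0.921, and those of different dates at 0.730 to 0.780. Replicate 2, also a November digit, correlated at 0.742 at most with any other day-7 digit, whatever the date. Ratios within each label month are therefore printed beside the pooled ones. No exact date was shared between 7 days and 0 hours, so from here a date is the month in the label. Exact date and time after amputation cannot be told apart. What the date stands for was not stated. Replicates 2 and 3 at 7 days were right digits and all others left. The methods give 3 mice for each time point, fewer than the 5 day-7 digits. They also describe a regenerating cut paired with a non-regenerating cut of the contralateral P3. The labels do not tie digits to mice, so some day-7 digits may share an animal. P-values over digits may then be too small. Epidermal and connective tissue genes defined the tissue in every one of the 8 digits, with Krt5, a keratin of basal keratinocytes, at normalized counts of 12662 to 19502 and Col3a1, a fibrillar collagen, at 7044 to 108451.

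Across all genes, the pooled comparison rested heavily on replicate 2. A gene was called when its edgeR adjusted p was under 0.05 and its mean normalized count plus 1 differed by more than 2-fold. With 8 digits, 13046 genes were tested and 7 met this rule (0.0537%), of which 4 rose (0.0307%) and 3 fell (0.023%). With 7 digits, 78 of 12810 met it (0.609%), comprising 65 rises (0.507%) and 13 falls (0.101%), and these included all 7. At an unadjusted p under 0.05 the 7-digit counts were 773 higher (6.03%) and 444 lower (3.47%), and the 4 kept day-7 digits lay wholly above the 0-hour digits for 798 genes (6.23%) and wholly below for 646 (5.04%). In replicate 2 itself, 45 of the 65 higher genes lay above and 12 of the 13 lower genes lay below the whole 0-hour range, while 10 and 6 of them had no count there. Every one of the 78 kept its direction, by more than 2-fold, within the July digits alone and within the November digits alone. These genes were chosen for their difference in the same digits, so this describes them and is no test of their direction. Leaving out one digit at a time, 9 of the 78 were called in all 7 fits: Cthrc1, Bcat1, BC100530, P4ha3, Fkbp10 and Sprr2a2, which rose, and Hbb-bs, Hbb-bt and Hba-a2, which fell. The count dropped to 10 without 0-hour replicate 2, 13 without 0-hour replicate 3, 20 without day-7 replicate 1 and 23 without 0-hour replicate 1, and was 68 to 75 without any other digit. With 8 digits, leaving out any digit other than replicate 2 left 0 to 2 calls.

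The date mattered for the number of calls. With the label month as a further term (the date term) in the edgeR fit of 7 digits, 242 genes were called (1.89%). Of these, 177 were higher (1.38%) and 65 lower (0.507%), and all 78 were among them. Of the named genes that were not called without the term, 17 then passed, 14 higher and 3 lower. They were the matrix genes Postn, Spp1, Col1a2, Col3a1, Loxl2, Thbs4 and Pcolce2, the proteases Mmp3 and Mmp13, Acp5, S100a9, Ccl7, Cxcl5, Cfb, Krt6b, Krt35 and Arntl. Their adjusted p with the term ran from 0.00124 for Postn to 0.049 for Spp1. With the amputation level as a term instead, 28 genes were called. In the following, called refers to the fit without either term.

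The 7 genes called with all 8 digits were Cthrc1, Ctsk, Bcat1 and BC100530, which rose, and Hbb-bs, Hbb-bt and Ppbp, which fell. Cthrc1 encodes a secreted protein of fibroblasts that are remodeling matrix. It lies at chr15:39076932-39087121 of GRCm38 on the plus strand. Its normalized counts in day-7 replicates 1 to 5 were 1026, 599, 958, 1971 and 1014, against 32.6, 17.1 and 22.3 in the 0-hour digits. The groups were far apart, and replicate 2 was the lowest of the 5 while still well above 0 hours. The log2 fold change was 5.54 ± 0.51 (SE) with 8 digits (adjusted p = 0.0124) and 5.71 ± 0.42 (SE) with 7 (adjusted p = 0.000868), and the ratio was much the same in both dates, at 5.48 in July and 5.58 in November on the log2 scale. In every one of the per-digit listings that follow, the second day-7 value is that of replicate 2.

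Ctsk is cathepsin K, the protease with which osteoclasts dissolve bone collagen, and it lies at chr3:95499256-95509362. Its day-7 normalized counts were 918, 1030.2, 1574, 1583 and 1319 and its 0-hour counts 190.5, 97.5 and 93.5. All 5 day-7 digits, replicate 2 included, lay close together and above the reference. The log2 fold change was 3.34 ± 0.38 (SE) with 8 digits (adjusted p = 0.0177) and 3.41 ± 0.36 (SE) with 7 (adjusted p = 0.00471). Bcat1, the cytosolic enzyme that begins the breakdown of branched-chain amino acids, lies at chr6:144993835-145076184. It went from counts of 5.26, 6.84 and 4.45 at 0 hours to 128, 79, 129, 199.5 and 132 at 7 days, without overlap. That was a log2 fold change of 4.70 ± 0.40 (SE) with 7 digits (adjusted p = 0.00167) and 4.56 ± 0.58 (SE) with 8 (adjusted p = 0.0289). BC100530, known by a clone name and lying at chr16:36359382-36367748, had counts of 1512, 466, 852, 677 and 1358 at 7 days and 77.9, 43.3 and 57.9 at 0 hours. It again separated the groups completely, with a log2 fold change of 4.21 ± 0.39 (SE) (adjusted p = 0.00274, 7 digits).

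**Figure D1:**
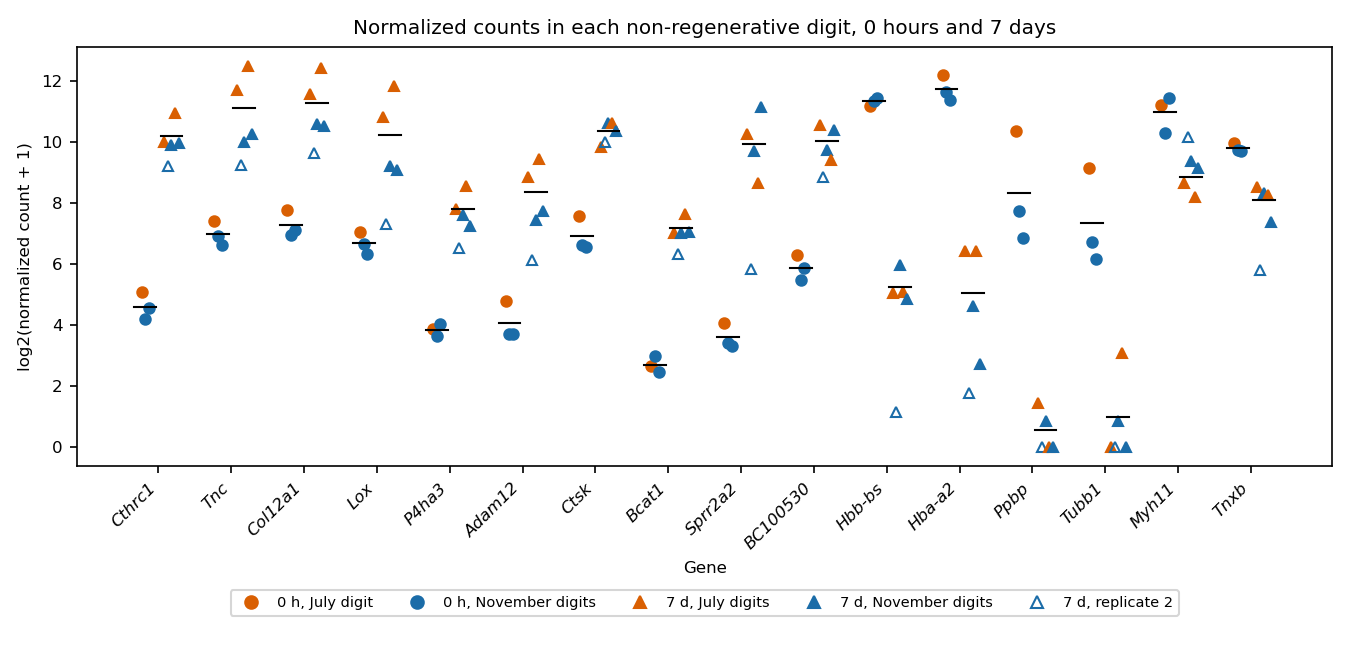
Normalized counts on a log2(count + 1) axis for 16 genes, one point per digit, with circles for 0 hours, triangles for 7 days, color for the label date and an open triangle for day-7 replicate 2. Black bars are means of the log2 values, without replicate 2 at 7 days; for Cthrc1 the day-7 digits span 599 to 1971 and the 0-hour digits 17.1 to 32.6 normalized counts.

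Of 20 tested fibrillar and network collagens, 6 were called higher with 7 digits and none lower, and 13 were called higher with the date term. An edgeR unadjusted p under 0.05 was found for 18, all higher, 18 did not overlap between the groups and all 20 had a positive fold change. The median log2 fold change was 2.17, against -0.000591 over all tested genes, and 1.95 with 8 digits, where no collagen was called. For this and every list below, the shares over all tested genes were 0.507% called higher and 0.101% called lower. With the date term they were 1.38% and 0.507%. At an unadjusted p under 0.05 they were 6.03% higher and 3.47% lower, and for groups without overlap 6.23% and 5.04%. Col1a1, the main chain of type I collagen in bone and scar, had day-7 normalized counts of 35109, 17732, 23893, 65334 and 28956 and 0-hour counts of 5485, 3102 and 3887. Each day-7 digit exceeded each 0-hour digit, and the log2 fold change was 3.21 ± 0.45 (SE) (adjusted p = 0.0236, 7 digits). Col12a1, which decorates fibril surfaces, rose by more, from 218, 123 and 137 to 3097, 793, 1552, 5514 and 1481, with log2 ratios of 4.30 within July and 3.53 within November (adjusted p = 0.0183 pooled). The type V chains that nucleate fibrils behaved differently in replicate 2 from the other digits. Col5a1 was at 6974, 673, 3594, 11201 and 3901 at 7 days and 1028, 842 and 980 at 0 hours, a log2 fold change of 2.76 ± 0.44 (SE) (adjusted p = 0.03) with 7 digits, and the value in replicate 2 lay below the whole 0-hour range. Col5a2, Col6a2 and Col6a3 completed the called collagens, with log2 fold changes of 2.70, 2.23 and 3.91. Col1a2, the second chain of type I collagen, and Col3a1, the type III chain, had log2 fold changes of 2.57 and 2.60 and did not reach the threshold (adjusted p = 0.0912 and adjusted p = 0.0822), although no day-7 digit without replicate 2 overlapped the 0-hour range. Col14a1 and Col15a1 were nearer to level, at 1.03 and 0.73, and their groups overlapped. Every collagen named here other than Col6a2 had higher counts in both July than in both kept November day-7 digits, and the summed level of the list ran from 103100 to 333580 in the 4 kept day-7 digits, 49603 in replicate 2 and 25095 to 36112 at 0 hours. As the tissue is a mixture, more collagen-making cells and more collagen RNA per cell cannot be told apart, here and in every group below.

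Enzymes that fold and cross-link collagen moved in the same direction, with 3 of 19 tested called higher, none lower (7 and 1 with the date term), and a median log2 fold change of 1.49. Lox, the lysyl oxidase that starts cross-linking, had day-7 normalized counts of 1815, 159, 590.1, 3698 and 539 against 133, 99.2 and 79.5 at 0 hours. The July digits carried counts several times those of the November digits, and the log2 ratio was 4.37 within July and 2.65 within November (adjusted p = 0.0475 pooled, 7 digits). P4ha3, a catalytic subunit of prolyl 4-hydroxylase, was steadier across digits, at 222, 90.8, 196, 373 and 153 against 13.7, 11.4 and 15.3, a log2 fold change of 4.13 ± 0.40 (SE) (adjusted p = 0.00321). Fkbp10, a chaperone of procollagen in the endoplasmic reticulum, was at 473, 0, 413, 668 and 573 against 72.6, 96.9 and 68.1. Its 4 kept day-7 digits lay close together and gave a log2 fold change of 2.74 ± 0.27 (SE) (adjusted p = 0.00321), while replicate 2 had no count at all and the 8-digit fit gave adjusted p = 0.999. The lysyl oxidase relatives Loxl1, Loxl2 and Loxl3 were not called, with log2 fold changes of 1.59, 1.92 and 1.72. Pcolce2, which enhances procollagen processing, ran the other way at -1.50 (adjusted p = 0.0572), with 106, 57.8, 114, 100.4 and 56.9 at 7 days and 309, 245 and 252 at 0 hours.

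Matricellular proteins, which sit in the matrix and signal to cells, included 4 called genes among 20 tested, all higher (13 with the date term), with a list median of 1.82. Besides Cthrc1 these were the tenascins Tnc and Tnn and the thrombospondin Thbs2. Tnc was at normalized counts of 3342, 605, 1034, 5791 and 1238 at 7 days and 169, 121 and 97.4 at 0 hours. The day-7 range was wide and differed by date, yet its lowest value was above all 0-hour digits, and the log2 fold change was 4.47 ± 0.67 (SE) (adjusted p = 0.0252, 7 digits; adjusted p = 0.156, 8 digits). Tnn, tenascin W, had a log2 fold change of 3.37 ± 0.51 (SE) (adjusted p = 0.0252), and replicate 2 lay within the 0-hour range at 207. Thbs2 was at 1677, 1829, 1179, 4127 and 854 against 189, 149.9 and 124, a log2 fold change of 3.67 ± 0.57 (SE) (adjusted p = 0.0278), and here replicate 2 was the second highest digit. Postn, periostin of the periosteum and of granulation tissue, had counts of 11014, 5061, 3925, 25572 and 3553 against 1484, 384 and 530.1, and missed the threshold at a log2 fold change of 3.79 ± 0.84 (SE) (adjusted p = 0.0955). Fn1, fibronectin, overlapped between groups (1.67), and Spp1, osteopontin, did not overlap but was not called (2.33, adjusted p = 0.184). Outside the lists, Wisp1 (a matricellular Wnt target), Fbn2 (fibrillin) and Itga11 (a collagen-binding integrin of fibroblasts) were called, with log2 fold changes of 6.49, 3.84 and 3.20. Tnfaip6, which binds hyaluronan in inflamed matrix, and Slc16a3, the lactate exporter, were further called rises at 4.25 and 4.31 (adjusted p = 0.0278 and adjusted p = 0.00838), the latter with no count in replicate 2. Wisp1 was the clearest switch among them, from 4.21, 4.56 and 0 at 0 hours to 296, 232, 68.5, 632 and 63.8 at 7 days.

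Matrix proteases and their inhibitors held the most calls of any list examined, 8 of 17 tested, all higher (14 with the date term), with a median of 2.77 and at an unadjusted p under 0.05 there were 16 higher and 1 lower. Adam12, a membrane protease of mesenchymal cells, was at normalized counts of 464, 69.5, 174, 696 and 212 against 26.3, 12 and 12.1, a log2 fold change of 4.56 ± 0.61 (SE) (adjusted p = 0.0183, 7 digits). Timp1, the inhibitor that blocks metalloproteinases, rose alongside from 21, 4.56 and 4.45 to 259, 67.2, 67, 367 and 132 (4.45 ± 0.79 (SE), adjusted p = 0.0447). Both separated the groups in all 8 digits. Mmp9, the gelatinase of neutrophils and osteoclasts, was at 244, 550.5, 777, 315 and 702 against 92.6, 26.8 and 23.5. It differed by date in the opposite sense from the collagens, with log2 ratios of 1.58 within July and 4.82 within November and a pooled change of 3.45 ± 0.62 (SE) (adjusted p = 0.0475). Mmp14, the membrane-bound collagenase, Mmp19 and Adam8 were called with log2 fold changes of 1.72, 2.37 and 2.77. Among further collagen-cutting enzymes not called were Mmp3 at 3.44 ± 0.69 (SE) (adjusted p = 0.0734) and Mmp13 at 2.97 ± 0.67 (SE) (adjusted p = 0.102), the latter with 159.8, 2.36, 265, 304 and 122 at 7 days, where replicate 2 was nearly empty. Timp3 was the member with a negative value, -0.74 (adjusted p = 0.413). Fkbp10, Loxl3, Timp1, Mmp19, Timp3, Tgfb3, Bmp4 and Alas2 each overlap a gene on the other strand, and since the strand setting of the counting was not stated, reads of the partners cannot be told apart.

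Osteoclast genes were divided. Of 16 listed markers, 11 passed the filter and the others were too low to test. Of the 11, 3 were called higher (Ctsk, Mmp9 and Atp6v0d2) and none lower, with a median of 0.99. Mmp9 also counts in the neutrophil list below. Clcn7, Ostm1 and Itgb3 were at 0.14, 0.12 and -0.63, and Itgb3 was the only negative value, against 10 positive ones. Atp6v0d2, a proton pump subunit needed for osteoclast fusion, had counts of 43.7, 3.54, 56.8, 88.1 and 29.1 at 7 days and 0, 1.14 and 1.27 at 0 hours. It was close to absent in the reference, so the fitted change of 5.76 ± 0.86 (SE) (adjusted p = 0.0245) depends on the small constant that edgeR adds. Acp5, the tartrate-resistant phosphatase, was higher in the 4 kept digits (229, 2.36, 185, 174 and 178 against 101, 53 and 38.8) and was not called (1.58, adjusted p = 0.102). Tnfsf11 (RANKL), the cytokine that drives osteoclast formation, was at 48.8, 149.7, 15.6, 26.9 and 36.1 against 0, 1.71 and 0.636 and was not called, while its decoy receptor Tnfrsf11b overlapped between groups at -0.26. Osteoblast and osteocyte markers gave a median of 0.34 over 13 tested, with Col1a1 and Pdpn called higher. Both are also made by fibroblasts. The more restricted markers were uneven: Ibsp, bone sialoprotein, was at 45.4, 3149.6, 2305, 898 and 2285, Sp7, the osteoblast transcription factor, at 3.36, 0, 17.9, 0 and 41.6, and Bglap, osteocalcin, at 0, 0, 0.779, 0 and 16.6, where the 0-hour Bglap counts were 83.1, 16 and 17.8. None of these was called, and among the 4 kept digits Ibsp and Sp7 were lower in the July digits, in which the named collagens were higher.

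**Figure D2:**
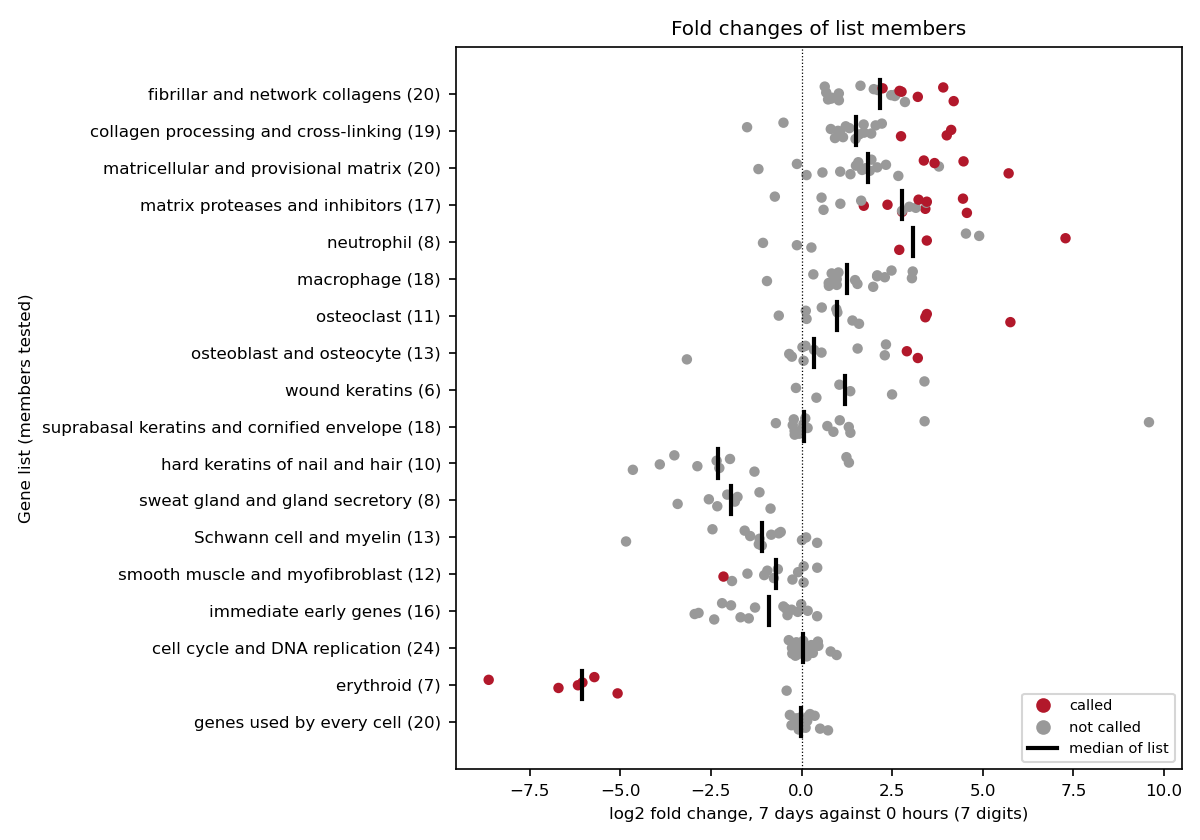
Log2 fold changes at 7 days against 0 hours from the 7-digit fit for each tested member of 18 gene lists, with called genes in red, others in gray and the list median as a black bar. The 20 collagens lie to the right of 0 and the 7 erythroid genes to the left, while the cell cycle genes and the genes used by every cell center on 0.

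Myeloid genes were higher at 7 days in part. Of 8 tested neutrophil markers, 3 were called higher (S100a8, Mmp9 and Clec4d), none lower, and 5 higher with the date term. S100a8, a calcium-binding alarm protein of neutrophils and stressed keratinocytes, went from 2.1, 0.57 and 0 at 0 hours to 378, 545, 54.5, 68.5 and 27.7 at 7 days. This separated the groups over a wide range (7.28 ± 1.31 (SE), adjusted p = 0.0475, 7 digits). No 0-hour digit held more than 2 counts, so the fitted change depends on the small constant that edgeR adds. With 3 counts in the smallest 0-hour library as the floor, mean S100a8 in the 4 kept digits was at least 41.9-fold higher. Its partner S100a9 was at 488, 733, 1533, 15.9 and 559 against 16.8, 22.8 and 24.8 and was not called, replicate 4 being as low as the reference (adjusted p = 0.116). The defining neutrophil receptors gave no such difference, with Cxcr2 at 30.3, 86, 30.4, 40.4 and 56.9 against 31.6, 58.7 and 38.8 and Csf3r at a log2 fold change of 0.27. The summed level of the 16 neutrophil markers was 715 to 2601 in the 4 kept day-7 digits, 2750 in replicate 2 and 148 to 293 at 0 hours. That sum is weighted by its most abundant members, with S100a9 at 1533 and Mmp9 at 777 in replicate 3. Of the 8 tested members, 6 had a positive and 2 a negative fold change, Cxcr2 at -0.13 and Hdc at -1.06. The C-type lectin receptors Clec4d, Clec4e and Clec4n of myeloid cells all rose, and Clec4n, also known as dectin-2, was at 126, 231, 29.6, 189.7 and 81.8 against 1.05, 3.99 and 1.27 (5.50 ± 0.82 (SE), adjusted p = 0.0245). Il1rl1, the receptor for interleukin-33, was at 495, 329, 125, 334 and 227 against 24.2, 7.98 and 13.4 (4.32 ± 0.58 (SE), adjusted p = 0.0183), with replicate 2 well inside the day-7 range. Its ligand Il33 had a log2 fold change of 1.30 ± 0.34 (SE) and was not called (adjusted p = 0.17).

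None of 18 tested macrophage markers was called, although 8 had an unadjusted p under 0.05, all higher, and the list median was 1.25. Lyz2, lysozyme, was at 2282, 447, 600.2, 4228 and 738 against 664, 375 and 347 (2.09, adjusted p = 0.289), and its groups overlapped. Adgre1, the F4/80 antigen, was at 108, 0, 19.5, 251 and 13.9 and overlapped the 0-hour counts of 22.1, 22.2 and 29.9. Replicate 2 had no count for Adgre1, C1qb, Trem2, Gpnmb or Ms4a7, and none for the class II genes H2-Aa and H2-Ab1. In the textbook polarization lists, Arg1 was at 2163, 216, 829.9, 800.5 and 1739 against 249, 714 and 767 (1.26, adjusted p = 0.413) and Mrc1, the mannose receptor, had a log2 fold change of 1.02, while Nos2 was too low to be tested. Hmox1, the heme-degrading oxygenase, and Il4ra, the receptor chain for interleukin-4, lie outside the macrophage list and were called higher. Hmox1 was at 501, 36.5, 307, 514 and 499 against 107, 117 and 158 (1.83 ± 0.27 (SE), adjusted p = 0.0245). Il4ra was at 550, 442, 324, 446 and 753 against 161, 147 and 167 (1.71 ± 0.30 (SE), adjusted p = 0.0417). For Hmox1 replicate 2 lay below the reference, whereas for Il4ra it lay with the other day-7 digits. Chemokine genes had a median of 1.14 over 13 tested and no call (4 higher with the date term), with log2 fold changes of 3.14 for Ccl7 (adjusted p = 0.0897), which draws monocytes, and 5.54 for Cxcl5 (adjusted p = 0.0897), which draws neutrophils.

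The epidermis showed selective changes. Wound keratins, induced in migrating keratinocytes, had a median log2 fold change of 1.19 over 6 tested and no call (Krt6b with the date term, 4 at an unadjusted p under 0.05, all higher). Krt6b was at normalized counts of 14013, 7764, 28837, 1520.2 and 26539 against 879.8, 2422 and 1774 and Krt16 at 11678, 28291, 28267, 1814 and 19615 against 2024, 3327 and 2811. In both, replicate 4 did not exceed the 0-hour range and the others lay far above it. Krt6a and Krt17 had log2 fold changes of 1.04 and 1.34 (adjusted p = 0.354 and adjusted p = 0.255). The structural keratins of resting epidermis overlapped between groups, at -0.16 for Krt5, 0.41 for Krt14, -0.19 for Krt1 and 0.02 for Krt10, and the suprabasal and cornified list as a whole had a median of 0.08. Its members were uneven, with 12 positive and 6 negative fold changes, and Sprr2d stood at 3.39, called higher only with the date term. Sprr2a2, a small proline-rich protein of the stressed cornified envelope, lies outside that list. Sprr2a2 was at 1219, 56.6, 837, 408 and 2273 against 15.8, 9.69 and 8.91. It had the second largest called rise, 6.71 ± 0.67 (SE) (adjusted p = 0.00361), and remained called in each fit that left out 1 digit. Sprr2a2 overlaps Sprr2a1 on the same strand and the family members are nearly identical, so the counts of single members are uncertain. Sprr2a1 was listed with no count in any 0-hour digit and was at 106, 276, 130, 0 and 112 at 7 days, at least 27.6-fold higher for the mean of the 4 kept digits when 3 counts in the smallest 0-hour library are taken as the floor. Replicate 4, with no count, overlapped the reference, and the gene was not called (adjusted p = 0.141). Lce3e, a late cornified envelope protein, and the surface protease Tmprss11b were called (3.21 and 4.83) with no count in replicate 2.

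Keratins of nail and hair had a median of -2.31 over 10 tested and no call (2 lower with the date term), with 3 lower at an unadjusted p under 0.05. Krt81 was at 2012, 21.2, 70.8, 53.9 and 15.3 against 7598, 173 and 383, and Krt35 at 60.6, 4.71, 11.7, 1.22 and 6.93 against 365, 215 and 277 (-3.91 ± 0.82 (SE), adjusted p = 0.0803). A July digit held the highest Krt81 count in each group, and the groups overlapped for Krt81 but not for Krt35.

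The other side of the comparison was led by blood. Of 7 tested erythroid genes, 6 were called lower with 7 digits and none higher (background 0.101% lower), with a median log2 fold change of -6.05. Hbb-bs, an adult beta globin, lies at chr7:103826534-103828096 on the minus strand and had normalized counts of 32, 1.18, 61.5, 33 and 27.7 at 7 days against 2341, 2642 and 2816 at 0 hours. The 0-hour digits lay close together and all day-7 digits lay far below them, giving a log2 fold change of -6.05 ± 0.34 (SE) (adjusted p = 0.000132) with 7 digits and -6.36 ± 0.73 (SE) (adjusted p = 0.0177) with 8. Hbb-bt, the neighboring beta globin gene at chr7:103812524-103813996, was at 5.05, 0, 0, 0 and 0 against 295, 469.6 and 456 (adjusted p = 0.00167). Among the alpha globins, Hba-a2 was at 85.8, 2.36, 23.4, 84.5 and 5.55 against 4748, 3242 and 2643 (-6.17 ± 0.76 (SE), adjusted p = 0.0117) and Hba-a1 at 0, 0, 3.89, 0 and 0 against 91.6, 200 and 165 (adjusted p = 0.0117). The 2 members of each pair have almost the same sequence, so the split of reads within a pair is uncertain. Alas2, the erythroid enzyme of heme synthesis, was at 8.41, 0, 8.56, 1.22 and 0 against 160, 166 and 163. Bpgm, which also belongs to the list but is used by other cells, had a log2 fold change of -0.41 and was not called. Erythroid counts made up 0.115% to 0.164% of each 0-hour library and 0.00167% to 0.00939% of each day-7 library.

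The promoters of a beta and an alpha globin gene are shown as RefSeq gives them on GRCm38.p6. Each runs from 250 bases before to 50 bases after the gene start, 5′ to 3′ on the gene's strand. Capitals mark the letters GATAAG, bound by erythroid GATA factors, and CCAAT, a common promoter box, searched on both strands together with TATAAA. The beta gene's window is chr7:103827879-103828178 on the minus strand and the alpha gene's is chr11:32296242-32296541 on the plus strand.
Hbb-bs: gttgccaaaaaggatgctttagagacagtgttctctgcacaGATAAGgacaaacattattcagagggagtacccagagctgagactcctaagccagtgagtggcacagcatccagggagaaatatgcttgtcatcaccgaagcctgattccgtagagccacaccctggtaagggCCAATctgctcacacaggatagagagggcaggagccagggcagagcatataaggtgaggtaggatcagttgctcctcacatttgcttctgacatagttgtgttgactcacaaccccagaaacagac
Hba-a2: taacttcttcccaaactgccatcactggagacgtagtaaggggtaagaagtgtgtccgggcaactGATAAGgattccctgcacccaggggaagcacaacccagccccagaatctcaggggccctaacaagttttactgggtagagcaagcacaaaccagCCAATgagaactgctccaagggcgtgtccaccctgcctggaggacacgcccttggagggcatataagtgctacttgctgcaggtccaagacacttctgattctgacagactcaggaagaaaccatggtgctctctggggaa
Over 32544 promoters of this length GATAAG occurred in 7.32%, CCAAT in 37.4% and TATAAA in 13.6%. Of the 13 genes called lower, 9 had a promoter in the table, and the 4 of these with GATAAG were the 4 globin genes, while 6 held CCAAT and 4 TATAAA. Of the 65 called higher, 41 had one, and 4 held GATAAG, 17 CCAAT and 10 TATAAA. The Hba-a1 and Hba-a2 windows are nearly the same sequence, so their matches are not independent. A match is a string of letters and was not tested as a binding site. Whether these strings bear on the fall of the globin genes was not tested.

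Platelet genes followed the globins. Ppbp, the platelet chemokine precursor, lies at chr5:90768518-90770063 and was at normalized counts of 1.68, 0, 0.779, 0 and 0 at 7 days against 1312, 213 and 116 at 0 hours. It is close to absent at 7 days and most abundant in the July 0-hour digit, with a fitted log2 fold change of -9.61 ± 1.18 (SE) (adjusted p = 0.0117, 7 digits; adjusted p = 0.0177, 8 digits). Tubb1, the platelet beta tubulin, was at 0, 0, 0.779, 7.34 and 0 against 566, 104 and 70.6 (adjusted p = 0.0298). Cd79a, a B cell receptor component, had no count in any day-7 digit and 20, 21.1 and 40.1 at 0 hours, at least 5.36-fold lower in the 4 kept digits, and was not called (adjusted p = 0.0811).

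The other falls described here were single genes of smooth muscle and connective tissue. Of 14 tested fibroblast markers none was called lower, 11 had a positive fold change and the median was 0.58, with Col1a1 called higher. Myh11, the myosin heavy chain of smooth muscle, was at 404, 1159, 661, 293 and 564 against 2374, 1254 and 2799 (-2.15 ± 0.36 (SE), adjusted p = 0.036). Acta2, the actin shared by smooth muscle and myofibroblasts, overlapped between groups at 1137, 348, 767, 1012 and 1165 against 1652, 397 and 899 (0.06), and the 12 tested genes of that list had a median of -0.71. Myoc, myocilin, was at 21.9, 51.9, 52.9, 7.34 and 1.39 against 543, 434 and 333 (-4.30 ± 0.73 (SE), adjusted p = 0.0393). Tnxb, a tenascin of mature dermis, went from 1015, 862 and 829 to 368, 54.2, 318, 304 and 164 (-1.64 ± 0.28 (SE), adjusted p = 0.0383), opposite to Tnc and Tnn of the same family. Clec3b, tetranectin, was also called lower (-1.66, adjusted p = 0.0288). Replicate 2 lay below the 0-hour range in each of these 4 genes.

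Nerve and gland genes had negative medians without a call. Schwann cell and myelin genes had a median log2 fold change of -1.10 over 13 tested, 7 of them lower at an unadjusted p under 0.05 and none higher. Mbp, myelin basic protein, had a log2 fold change of 0.12. Sweat gland genes had a median of -1.95 over 8 tested, 7 of them lower at the same unadjusted threshold, and Krt19 was at 33.6, 61.3, 17.1, 0 and 36.1 against 202, 52.4 and 125 (adjusted p = 0.326). Immediate early genes, transcribed within minutes of a stimulus, had a median of -0.89 over 16 tested, with 8 lower and none higher at that threshold. Fos was at 447, 559, 987, 306 and 304 against 8949, 2047 and 880.1, and the July 0-hour digit was far above the other reference digits (-2.95, adjusted p = 0.153).

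Among the signaling lists, calls lay mostly with the TGF-beta and activin genes. These included 3 calls among 15 tested, all higher (4 with the date term), where 0.507% of all genes were called higher. Among them were Tgfb3 at 331, 581, 564, 867 and 524 against 118, 150.5 and 183 (1.92 ± 0.34 (SE), adjusted p = 0.0426) and Tgfbi, a matrix protein named for its induction by TGF-beta, at 1.99 (adjusted p = 0.0183). The ligands Tgfb1 and Tgfb2 overlapped between groups, at 0.38 and 0.26. Among 14 tested BMP ligands and antagonists none was called, and Bmp2, Bmp4 and Bmp7 had log2 fold changes of -0.61, -1.05 and -0.10. One of 18 Wnt ligands and secreted regulators was called, Dkk3 at 1.63 (adjusted p = 0.0298), while Wnt5a and Wnt10b were at 0.29 and 0.60. No limb patterning factor was called, with Hoxa11, Hoxa13 and Hoxd13 at 0.64, 0.51 and 1.17. The 24 cell cycle genes had a median of 0.05, no call, and 1 gene with an unadjusted p under 0.05. Mki67, a marker of cycling cells, was at 1288, 3715, 2161, 1977 and 1073 against 1365, 1778 and 1569, and replicate 2 was the highest digit. Hypoxia genes, respiratory chain subunits and endothelial genes had medians of 0.45, -0.03 and -0.19, and the 20 genes used by every cell one of -0.02.

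**Figure D3:**
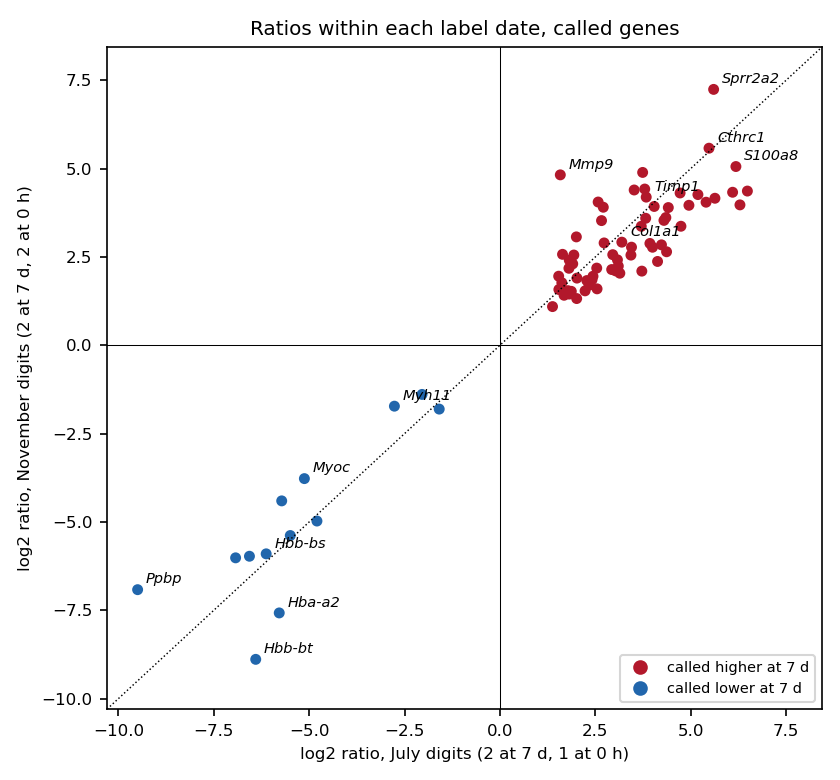
Log2 ratio of mean normalized counts plus 1 within the July digits (horizontal) and within the November digits (vertical) for the 78 genes called with 7 digits, red for higher and blue for lower. All 65 red points lie in the upper right and all 13 blue points in the lower left; Mmp9 sits above the dotted line of equal ratios at 1.58 and 4.82.

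Medians at other times were set beside those at 7 days as a description, and only 7 days against 3 and 14 days was tested. The dates were spread unevenly over the times. All digits at 3 and 12 hours carried July dates, and all at 21 days dates in December or January. Date and time are therefore partly confounded in these medians. On the scale of the deposited normalized TPM, which corrects for transcript length, the medians of Cthrc1 over 0 hours, 24 hours, 3 days, 7 days, 14 days and 21 days were 5.95, 8.38, 65.8, 265, 428 and 144. Replicate 2 of day 7 and replicate 2 of day 14, which also stood apart, were left out of these medians. Col1a1, also highest at 14 days, had over the same times 194, 82.1, 652, 1559, 4410.2 and 1973, and was the more abundant transcript at each of these times. Tnc was already at 92 at 12 hours and stood at 96.6 at 7 days. The wound keratin Krt16 was highest earlier, with a median of 17129.6 at 24 hours and 2878 at 7 days. Neutrophil transcripts had lower medians at 7 days than at 24 hours or 14 days: S100a8 had medians of 390.4 at 24 hours, 38.8 at 7 days and 311 at 14 days, and S100a9 of 757, 310.2 and 919.6. The 14-day medians rest on 2 digits that lay far apart, at 17.4 and 1822 for S100a9. Mmp9, like S100a9, was highest at 14 days (154, against 50.7 at 7 days). Sprr2a2 had its highest median at 3 days (873). Hbb-bs declined from 1291 at 0 hours through 305 at 3 hours and 36.5 at 24 hours to 18.8 at 7 days, so most of the drop preceded the first week's end. Tested directly, no gene was called between 7 and 3 days (0 of 12744, 0%) or between 7 and 14 days (0 of 13629, 0%) by edgeR without the libraries that stood apart. Unadjusted edgeR p-values under 0.05 numbered 415 of 12744 and 292 of 13629. Both are a smaller share than the 0.05 expected if no gene differed. DESeq2 called 34 and 12 genes. With the libraries that stood apart kept in, edgeR again called none. The unadjusted counts were then 167 of 12945 against 3 days and 1098 of 13405 against 14 days. Of the 1098, 72 were higher and 1026 lower at 7 days. Named after their p-values were seen, the genes with the smallest edgeR p between 7 and 3 days were Cthrc1, at a log2 difference of 2.54 (adjusted p = 0.524), Ctsk at 1.72 (adjusted p = 0.524) and Il1b at -3.01 (adjusted p = 0.524). These comparisons share the day-7 digits with the one against 0 hours.

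**Figure D4:**
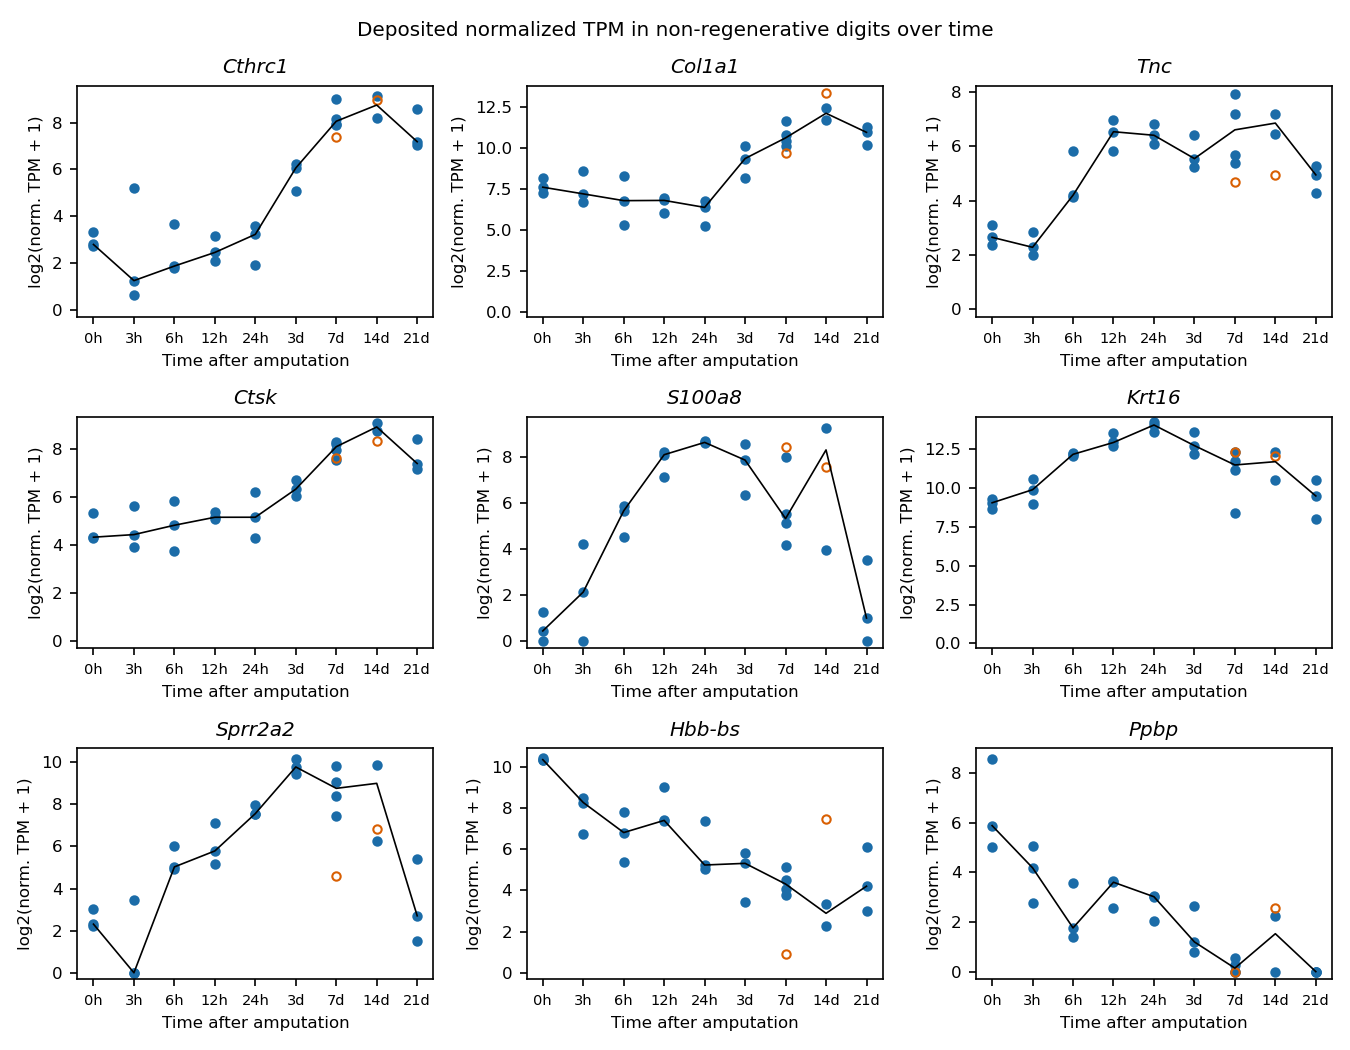
Deposited normalized TPM on a log2(value + 1) axis in each non-regenerative digit from 0 hours to 21 days for 9 genes, with a line through the medians and open orange circles for the day-7 and day-14 libraries that stood apart, which are left out of the medians. Cthrc1, Col1a1 and Ctsk reach their highest medians at 14 days, Krt16 and S100a8 at 24 hours, and Hbb-bs its highest at 0 hours.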

How the data were processed

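Digit RNA was sequenced as single-end reads of poly(A)+ RNA prepared by LM-Seq, from 5 digits at 7 days and 3 at 0 hours. Per the labels and methods, the authors aligned reads with Bowtie to mouse Ensembl genes (mm10) and estimated gene abundance with RSEM 1.2.3, and deposited expected counts and, as a separate signal, TPM normalized across samples by median ratios. RSEM shares reads between similar genes, which affects paralogs. The macrophage files were not used here.

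Expected counts were rounded. Low genes were removed with filterByExpr, libraries scaled by TMM, and groups compared with edgeR 4.0.16 (glmQLFit, glmQLFTest, two-sided) with Benjamini-Hochberg adjustment over all tested genes. The study called genes with EBSeq, which was not used here. The SE is the log2 fold change divided by the square root of F. A normalized count is the count divided by the effective library size and multiplied by the geometric mean size. Within-date ratios use mean normalized counts plus 1. Bounds take a floor of 3 counts in the smallest library and cover counting error only. Alternatives included DESeq2 1.42.0, limma 3.58.1 voom weights, and terms for date and amputation level. Fits were tested on simulated data. No 2 digits of a group agreed within counting noise (chi-square per degree of freedom of 10.2 or more).

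Positions are from the GENCODE annotation of GRCm38, matched by Ensembl identifier. Named genes came from all genes called with 8 digits, the 12 largest called rises and up to 12 called falls with groups that did not overlap and with a mean normalized count of at least 100 (7 digits), and the first 4 members of each of 48 gene lists; the other 42 of 123 named genes were chosen after their values were seen. Some genes that the rule or a list includes are not reported here. The comparison, lists and named genes were chosen with earlier results of these data known. Totals of 3206590 to 10608244 counts per digit set the precision of low genes.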

Additional observations from a re-analysis of the deposited data

Results flagged for a closer look

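Among 123 named genes, 25 had a day-7 digit far from the other 4 on the log2(normalized count + 1) scale, where the gap to the nearest digit divided by the range of the 5 exceeded 0.71. About 1 in 20 groups passes this limit by chance. In 18 of the 25 the digit was replicate 2, the library with many abundant genes at 0. It was the lowest digit for Fkbp10 (ratio of gap to range 0.926), Itga11 (0.824), Mmp13 (0.799), Acp5 (0.935), H2-Aa (0.854), H2-Ab1 (0.863), C1qb (0.801), Gpnmb (0.712), Hmox1 (0.803), Lce3e (0.806), Slc16a3 (0.804), Hbb-bs (0.768), Tgfb2 (0.887), Bmp7 (0.823), Wnt10b (0.719), Hoxa11 (0.743) and Hoxd13 (0.793). It was the highest for Cfb (0.777).

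Replicate 4 was apart for Fbn2 (0.867) and Tubb1 (0.729), where it was the highest, and for S100a9 (0.746) and Sprr2a1 (0.831), where it was the lowest. Replicate 5 was the highest for Bglap (0.799). Hbb-bt was above 0 only in replicate 1 and Hba-a1 only in replicate 3, each with a ratio of 1.0.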

How the results depend on the processing

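With 7 digits, 78 genes were called. DESeq2 called 359, including all 78, the term for date 242 (177 higher, 65 lower), voom with quality weights 255, one fit over all non-regenerative digits 214 and no filter on low counts 127, whereas the amputation level as a term left 28. Leaving out one digit gave 10 to 75. Chosen after seeing the data, omitting day-7 replicates 4 and 5 gave 26 calls, and the November digits alone 87, of which 38 were among the 78. With 8 digits, 7 were called, against 161 by DESeq2, 261 with voom weights, 66 in the fit over all non-regenerative digits, 24 with date, 3 with amputation level, 75 with left digits only, and 0 to 78 when one digit was left out. Between 7 and 3 days, 0 genes became 34 by DESeq2, and 0 to 1 with one digit left out. Between 7 and 14 days, 0 became 12 by DESeq2, 22 without a filter, 2 in the fit over all digits and 0 throughout when one digit was left out. DESeq2 size factors and dropping the fold threshold moved no count by more than 1.5 times. No named call reversed under any alternative. The cause of these differences was not tested. No paired analysis was possible because the labels do not tie digits to mice and no exact date was shared between 7 days and 0 hours. The digit codes in the labels recur within a group only under different dates and are not stated to number animals. The label month, which both groups hold, entered as the term given above. The library sizes and the 3 reference digits limit low and variable genes.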

Other observations

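Clock genes were not called without a term for date; with it, 1 of the 16 was called higher and 1, Arntl, lower. Arntl, the activator of the circadian loop, was at normalized counts of 131, 127, 109.8, 136 and 133 in day-7 replicates 1 to 5 and 379, 251 and 245 at 0 hours (log2 fold change -1.19, edgeR adjusted p = 0.0736, 7 digits), and its groups did not overlap. Per2, a repressor of the same loop, was at 412, 177, 387, 283 and 165 against 69.5, 73.5 and 134 (1.75, adjusted p = 0.0912). The list of 16 had a median of 0.30, and the time of day of collection was not given in the sources used here.

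Complement and coagulation genes had no call among 15 tested (2 higher with the date term), with 7 higher and 1 lower at an unadjusted p under 0.05. Cfb, factor B of the alternative pathway, was at 118, 442, 141, 148 and 108 against 21, 45.6 and 49.6 (1.72, adjusted p = 0.0889). Cfb overlaps Gm20547 on the same strand, so its counts are uncertain. Thbs4, a thrombospondin of tendon, was at 2096, 8316, 3292, 4779 and 2859 against 890.3, 1237 and 1179 (1.56, adjusted p = 0.0736), and replicate 2 held the highest count of the 8 digits.

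Markers of cell types expected to be scarce were mostly too low to test: 2 of 12 T and NK cell genes in the table, 1 of 9 B and plasma cell genes, 3 of 10 mast cell genes, 2 of 9 melanocyte genes and 5 of 20 skeletal muscle genes passed the filter with 7 digits. Cartilage and joint genes had a median log2 fold change of -0.26 and tendon and ligament genes one of 0.84, neither list with a call without the date term.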
